A study of Mus musculus with 6 samples.

Results

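The genes described here mark the two-cell-like state of mouse embryonic stem cells (ESCs), and all 6 that were named for it, Zscan4c, Zscan4d, Zscan4f, Tcstv1, Tcstv3 and Zfp352, were found by symbol among the 21376 gene symbols of the expression table. In an ESC culture a small and changing fraction of cells passes for a short time into a state in which genes of the two-cell embryo are switched on. The transcription factor DUX and the proteins DPPA2 and DPPA4 promote it, and chromatin regulators such as TRIM28, LSD1 and CAF-1 hold it back. The Zscan4 genes encode SCAN domain zinc finger proteins that act in telomere maintenance and genome stability, Tcstv1 and Tcstv3 are small genes transcribed in the two-cell embryo, and Zfp352 encodes a zinc finger protein of the same stage.

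RNA-Seq was done on mouse ESCs (D0) and on day 3 embryoid bodies (EBs, D3) grown from them. Each of 3 lines, WT, KD and AP3 (H2A.Z-WT, H2A.Z-KD and the mutant H2A.Z-AP3), gave 1 library per day, or 6 in all. H2A.Z is a histone variant that replaces H2A in a part of the nucleosomes. WT and AP3 are lines with a doxycycline-inducible, YFP-tagged H2A.Z transgene under a CMV promoter, sorted for YFP, and they also carry a short hairpin RNA against the endogenous transcript. In AP3 the acidic patch residues are changed by G92N, D97N and S98K to those of H2A. KD denotes depletion of the endogenous transcript by the hairpin. The methods introduce the hairpins into the transgenic lines, and which transgene the KD-labelled library carries, and whether it was induced, was not established here. The labels give the strain as V6.5 (129SvJaexC57BL/6), while the methods place the transgenes in KH2 ESCs. ESCs were kept with fibroblast feeders except in the last passage, and EBs were made without LIF. Levels are in RPKM, reads scaled to transcript length and to the number of mapped reads, so levels of different genes can be compared. With 1 library per condition, no p-value is given for a difference between lines at 1 day or between the days of 1 line, and none of these has a replicate check. The days were tested over the 3 lines, and the lines over both days, where no symbol passed. Changes are log2 ratios after adding 0.001 RPKM, and "higher" or "lower" is used of those past 1.5-fold (0.58 on the log2 scale).

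H2afz, which encodes H2A.Z, stood at 279 RPKM in WT, 343 in KD and 304 in AP3 among the ESC libraries. In EBs the same order read 258, 236 and 394 RPKM. The targeted gene was therefore not lower at D0 in the KD-labelled library, and directions drawn from it are those of that library. The table does not show how much of this signal is transgene. Estimated depth was 19.7 to 30.2 M reads per library, highest in AP3 at D0. These estimates are uncertain. With full transcript lengths, WT at D0 went from 19.7 to 17.3 M and AP3 at D0 from 30.2 to 28.5 M. The ESC libraries held the markers of pluripotency: Dppa5a was at 1021 to 1089 RPKM, Pou5f1 at 413 to 540, Tdgf1 at 406 to 481 and Utf1 at 185 to 189 in the 3 ESC libraries.

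Zscan4c, Zscan4d and Zscan4f lie among 6 Zscan4 entries that span 608 kb of mouse chromosome 7. In mm9, the build of the table, Zscan4c is at chr7:11591094-11595896 on the plus strand, Zscan4d at chr7:11746992-11751497 on the minus strand and Zscan4f at chr7:11983264-11987667 on the plus strand. Within 100 kb of these genes the table lists 1 other gene, Zscan4e, beside Zscan4f. Zfp352 stands at chr4:89885511-89892378 on the plus strand with no neighbour in that distance. Tcstv1 (37344 to 38715) and Tcstv3 (3053 to 4452) are on the unplaced sequence chrUn_random of mm9.

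How far the 3 Zscan4 genes can be told apart matters for every value below. Their coding sequences are 1521 bases long. Zscan4c and Zscan4f differ at 6 bases (99.6% identical) and share a stretch of 407 identical bases, and Zscan4d differs from each of them at 35 bases (97.7% identical). The window of coding bases 1043 to 1072 is shown because it holds 4 of the differing bases, in capitals, at which these 3 genes can be told apart. It lies at chr7:11594867-11594896 (plus strand) in Zscan4c, chr7:11747719-11747748 (minus strand) in Zscan4d and chr7:11987060-11987089 (plus strand) in Zscan4f of mm9:
Zscan4c: aaaaCgacccAagggagGtaccagggttgC
Zscan4d: aaaaAgacccTagggagCtaccagggttgG
Zscan4f: aaaaAgacccTagggagGtaccagggttgC
Of all 40-base windows of the transcript, 83.7% in Zscan4c, 83.2% in Zscan4f and 53.1% in Zscan4d also occur in another Zscan4 transcript. The authors let a read align to up to 20 locations, so the split between copies is uncertain and the 3 genes are not independent measurements. Their sum, called the Zscan4 sum below, is therefore given beside each of them. It does not remove this uncertainty, since reads can also be shared with the other Zscan4 copies.

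The promoters of the Zscan4 copies are alike too, and they are shown for that likeness. A link between it and the values of the copies was not tested. Promoters of 4 of the 6 genes (the 3 Zscan4 genes and Zfp352) were matched by symbol in a RefSeq table of GRCm38.p6. The letters TATAAA, in capitals, lie in the same block of bases in Zscan4c (chr7:11005679-11005708, plus strand), Zscan4d (chr7:11166196-11166225, minus strand), Zscan4f (chr7:11397872-11397901, plus strand) and the further copy Zscan4b (chr7:10905064-10905093, minus strand):
Zscan4c: gaagccaggcgcTATAAAagggaaccaatc
Zscan4d: gaagccaggggcTATAAAagggaaccaatc
Zscan4f: gaagccaggcgcTATAAAagggaaccaatc
Zscan4b: gaagccagaggcTATAAAagggaaccaatc
The first T is 54 bases before the annotated start in Zscan4c, 65 in Zscan4d and 31 in Zscan4f and Zscan4b. TATAAA was searched on both strands of the 300 bases around each start and occurs in 13.6% of 32851 such promoters. These letters are not in the window of Zfp352. A match of letters is not evidence of binding.

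In ESCs the 3 Zscan4 genes stood at low levels in WT and lower still in AP3. Zscan4c was at 2.07 RPKM in WT, 2.59 in the KD-labelled library and 0.392 in AP3. Zscan4d was at 1.10, 1.51 and 0.304 RPKM in the same order. Zscan4f was at 2.55, 2.96 and 0.558 RPKM. For each gene the AP3 library was the lowest of the 3 ESC libraries and the KD-labelled library the highest. The other 3 copies, of which Zscan4a and Zscan4b are named outside the rule for named genes, had the same order of libraries: Zscan4a at 1.36, 1.82 and 0.563 RPKM, Zscan4b at 1.31, 1.63 and 0.381, and Zscan4e at 1.41, 2.06 and 0.398.

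**Figure D1:**
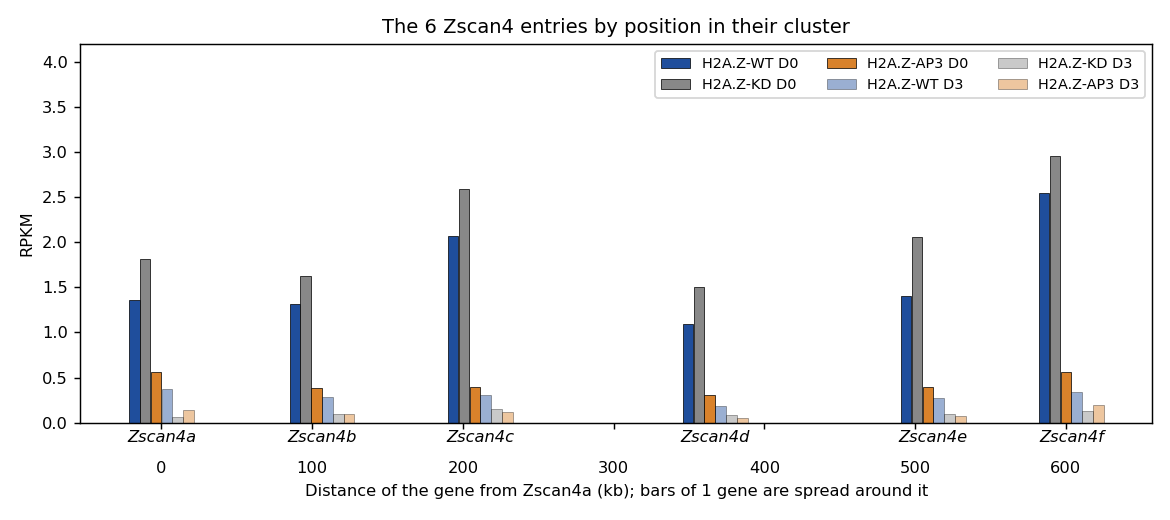
RPKM of the 6 Zscan4 entries in the 6 libraries (1 bar per library, D3 pale), placed by the distance in kb of each gene from Zscan4a on chromosome 7. At all 6 the D0 bars of WT (1.10 to 2.55 RPKM) and of the KD-labelled library exceed the D0 bar of AP3 (0.304 to 0.563 RPKM).

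Between AP3 and WT at D0 the log2 change was -2.39 for Zscan4c, -1.85 for Zscan4d and -2.19 for Zscan4f. Over the 12994 symbols with a mean of at least 0.5 RPKM in the 2 libraries, these were the 42nd, 65th and 46th largest decreases, and 7.07% of those symbols were lower by more than 1.5-fold. Zscan4c and Zscan4d were under 0.5 RPKM in AP3 (0.392 and 0.304) and passed this filter only through WT. The filter was also chosen after seeing the data, so the ranks are descriptions only. All 6 Zscan4 entries summed to 9.79 RPKM in WT and 2.60 RPKM in AP3, 3.77 times lower. The sum of the 3 genes was 5.71 RPKM in WT and 1.25 RPKM in AP3, 4.55 times lower. At the estimated depths this compares about 206 with 69 reads, with a 95% interval of 3.47 to 6.10 for the ratio (Clopper-Pearson, from estimated reads). This interval and those below cover counting error only. They leave out the error of the estimated depths and of the split of shared reads between copies. The reads carry no molecular identifiers, so several can stem from 1 molecule, and cultures were not replicated. In bulk RNA, fewer cells in the state and less RNA in each such cell cannot be told apart.

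The other 3 genes did not share this difference at D0. Tcstv1 was at 0.751 RPKM in WT, 1.05 in the KD-labelled library and 0.538 in AP3. Tcstv3 was at 0.402, 1.17 and 0.523 RPKM, and Zfp352 at 0.275, 0.308 and 0.403 RPKM. From WT to AP3 these are log2 changes of -0.48, 0.38 and 0.55, none past 1.5-fold, and the counting interval of each ratio includes no change (0.359 to 1.49 for Tcstv1, 0.548 to 2.98 for Tcstv3 and 0.671 to 3.22 for Zfp352). Of the 6 genes, 3 were thus lower and none higher, where 13.8% of all symbols were lower. These 3 are the Zscan4 copies, which are not independent measurements. With near-identical copies summed to 3 entries, 1 entry passed. The median log2 change was -1.16 over the 6 genes and 0 over all symbols.

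**Figure D2:**
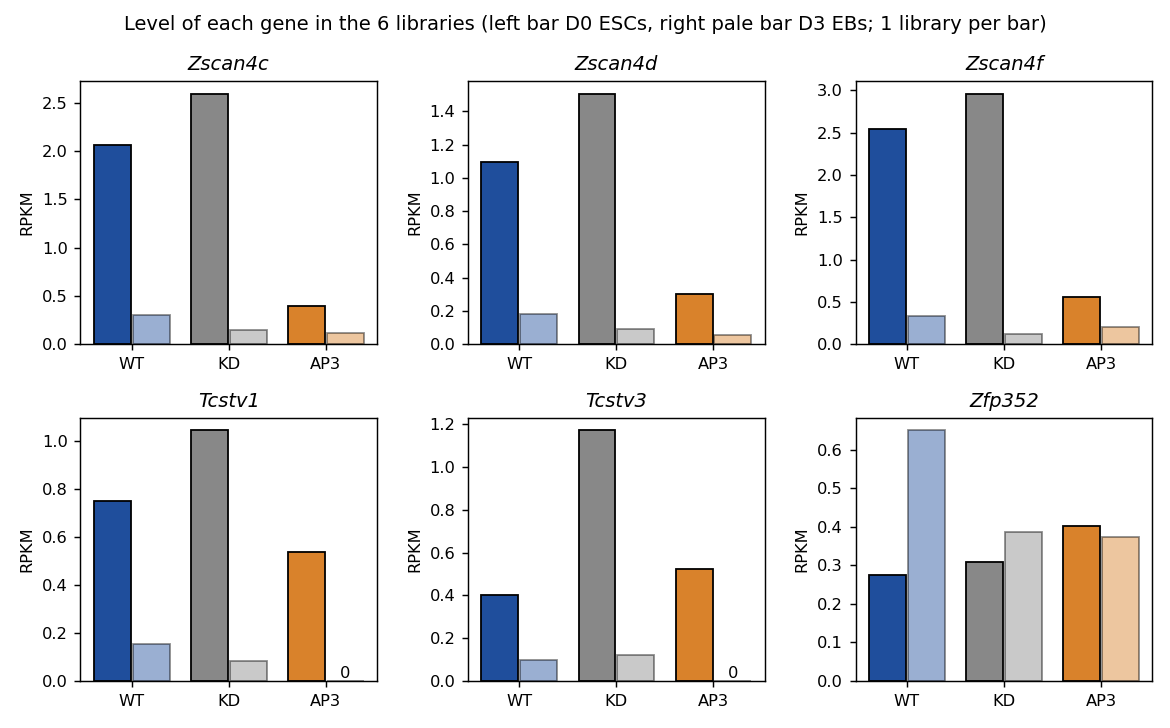
RPKM of each gene in the 6 libraries, with the D0 ESC bar on the left and the paler D3 EB bar on the right for WT (WT), the KD-labelled library (KD) and AP3 (AP3), 1 library per bar and a separate scale per panel. The 3 Zscan4 genes are low in every library but the D0 libraries of WT and KD, Tcstv1 and Tcstv3 are listed at 0 in AP3 at D3, and Zfp352 is highest in WT at D3 (0.650 RPKM).

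Markers of fibroblasts, the cell type of the feeders, moved with this comparison. The 10 fibroblast markers summed to 38.4 RPKM in WT, 31.3 in the KD-labelled library and 56.8 in AP3 at D0, and 5 of 10 were higher and 1 lower in AP3 than in WT, where 11.1% of all symbols were higher and 13.8% lower. Col1a1 and Col1a2, which encode collagen I, stood at 9.76 and 12.9 RPKM in WT and at 15.5 and 22.5 RPKM in AP3. S100a4 (8.87 and 8.02 RPKM) and Thy1 (1.74 in both) differed by less than 1.5-fold. Lum was listed at 0 in WT and Postn in AP3, both named for that reason outside the rule. The part of these cells in the Zscan4 difference was not tested. The 8 pluripotency markers in the table summed to 2640 RPKM in WT and 2505 in AP3. Of them 2 were lower, Sox2 (191 and 110 RPKM) and Klf4 (121 and 65.9 RPKM), named here after their values were seen, where 13.8% of all symbols were lower, and none was higher.

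Genes of early differentiation were unequal between the ESC libraries. In AP3 4 of 10 were higher than in WT, where 11.1% of all symbols were higher, and 2 were lower. Gata6, Sox17 and Foxa2, transcription factors of endoderm, stood at 2.96, 0.974 and 0.420 RPKM in WT and at 9.84, 2.70 and 1.41 RPKM in AP3. Otx2 and Fgf5, expressed in the epiblast on leaving the naive state, stood at 4.22 and 0.539 RPKM in WT and at 1.37 and 0.106 in AP3. Dnmt3b (34.0 and 30.7 RPKM) and Pou3f1 (4.22 and 3.27 RPKM) differed by less than 1.5-fold. The part of this difference in cell state in the Zscan4 values was not tested.

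The KD-labelled library was set against the same WT library, so its comparison is not independent of the one above. At D0 the log2 changes were 0.33 for Zscan4c, 0.46 for Zscan4d, 0.22 for Zscan4f, 0.48 for Tcstv1, 1.54 for Tcstv3 and 0.16 for Zfp352. Only Tcstv3, at an estimated 29 against 10 reads (ratio 2.92, interval 1.31 to 6.35), passed 1.5-fold, 1 of 6 genes where 8.92% of all symbols were higher. The sum of the 3 Zscan4 genes was 7.06 RPKM against 5.71, a ratio of 1.24 with a counting interval of 1.03 to 1.49. Set against the KD-labelled library, AP3 was lower at D0 for 5 of the 6 genes, where 13.4% of all symbols were lower. The log2 changes were -2.72 for Zscan4c, -2.30 for Zscan4d, -2.41 for Zscan4f, -0.96 for Tcstv1 and -1.16 for Tcstv3, with 0.39 for Zfp352. The Zscan4 sum was 5.63 times lower (interval 4.33 to 7.49). Marker lists moved with this comparison too: 6 of 10 fibroblast markers were higher (13.6% of all symbols were) and 1 lower in AP3, and 3 of 10 early differentiation markers were higher and 4 lower. Their part in the difference was not tested.

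At D3 the Zscan4 and Tcstv genes were lower than at D0 in all 3 lines, and Zfp352 was not. In WT, Zscan4c went from 2.07 RPKM at D0 to 0.305 at D3, Zscan4d from 1.10 to 0.181 and Zscan4f from 2.55 to 0.339. Tcstv1 went from 0.751 to 0.154 RPKM and Tcstv3 from 0.402 to 0.0995. These are log2 changes of -2.76, -2.59, -2.91, -2.28 and -2.004. For Tcstv3, at an estimated 10 and 3 reads, the counting interval of the ratio (0.0498 to 1.09) includes no change. Zfp352 went the other way, from 0.275 to 0.650 RPKM (log2 change 1.24, about 11 and 27 reads, interval of the ratio 1.11 to 5.14). So 5 of 6 genes were lower and 1 higher at D3 in WT, where 16.4% of all symbols were lower and 14.2% higher. After adding 1 RPKM, Tcstv3 (-0.35) and Zfp352 (0.37) did not pass in WT.

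In the KD-labelled library the same 5 genes were lower at D3 (background 16.1% of symbols), with log2 changes of -4.11 for Zscan4c, -4.07 for Zscan4d, -4.57 for Zscan4f, -3.62 for Tcstv1 and -3.26 for Tcstv3. Zfp352 stood at 0.308 RPKM at D0 and 0.387 at D3 (log2 change 0.33). In AP3, where 16.3% of symbols were lower, the 3 Zscan4 genes changed by -1.79, -2.44 and -1.48 and both Tcstv genes were listed at 0 at D3. After adding 1 RPKM the 3 Zscan4 changes in AP3 were -0.32, -0.31 and -0.38, none past 1.5-fold. Zfp352 was at 0.403 and 0.373 RPKM (log2 change -0.11).

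The days were also compared over the 3 lines in 1 fit (limma on log2(RPKM + 0.1) of all 18504 symbols above 0 in a library, line as a block, 2 residual degrees of freedom), a test added after the data were seen. It takes the lines as repeats of the day difference, although they differ in H2A.Z, and no line has a repeat of its own. The log2 change from D0 to D3 was -2.36 ± 0.445 (SE, limma adjusted p = 0.0383) for Zscan4c, -2.19 ± 0.378 (0.0298) for Zscan4d and -2.501 ± 0.5005 (0.0441) for Zscan4f. It was -2.35 ± 0.304 (0.0143) for Tcstv1, -2.16 ± 0.342 (0.0243) for Tcstv3 and 0.39 ± 0.314 (0.517) for Zfp352. So 5 of the 6 genes were lower at an adjusted p under 0.05, each in 3 of 3 lines, where 3.47% of symbols were. The count was 3 after adding 0.001 RPKM, 1 after adding 1 RPKM and 4 without the block. With any 1 line left out limma called 0 symbols of the table, at 1 residual degree of freedom, while 1737, 1508 and 1187 symbols were lower at an unadjusted p under 0.05 without AP3, the KD-labelled library and WT.

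The sum of all 6 Zscan4 entries fell from D0 to D3 by 5.56 times in WT, 20.8 times in the KD-labelled library and 3.83 times in AP3. The fall of the Zscan4 sum (3 genes) from D0 to D3 was 6.92 times in WT (interval 4.71 to 10.3), 19.5 times in the KD-labelled library (11.99 to 35.2) and 3.42 times in AP3 (1.98 to 6.59). The 3 lines began from different levels, 5.71, 7.06 and 1.25 RPKM, and ended between 0.361 and 0.825 RPKM. Of the 10 fibroblast markers, 7 were lower at D3 than at D0 in WT (16.4% of all symbols were), 9 in the KD-labelled library (16.1%) and 8 in AP3 (16.3%), and Thy1 alone was higher in each. The list sum went from 38.4 to 14.0 RPKM in WT, from 31.3 to 8.13 in the KD-labelled library and from 56.8 to 11.8 in AP3, of which Thy1 made up 9.19, 5.48 and 3.56 RPKM at D3. The part of these markers' cells in the Zscan4 fall was not tested. Of the 10 early differentiation markers, 9 were higher at D3 in WT (14.2% of all symbols were), 7 in the KD-labelled library (14%) and 6 in AP3 (14.7%).

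In EBs the levels were so low that few reads stand behind each value. Zscan4c was at 0.305 RPKM in WT, 0.149 in the KD-labelled library and 0.112 in AP3, about 13, 8 and 5 reads. Zscan4d was at 0.181, 0.0885 and 0.0552 RPKM and Zscan4f at 0.339, 0.124 and 0.199 RPKM. WT was the highest for each. Tcstv1 was at 0.154, 0.0840 and 0 RPKM, Tcstv3 at 0.0995, 0.122 and 0, and Zfp352 at 0.650, 0.387 and 0.373.

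From WT to AP3 at D3 the log2 changes were -1.43 for Zscan4c, -1.70 for Zscan4d, -0.77 for Zscan4f and -0.80 for Zfp352. With both Tcstv genes listed at 0, all 6 genes were lower, where 11.6% of symbols were. After adding 1 RPKM in place of 0.001 none of the 6 passed 1.5-fold, so the count rests on low values. The counting interval of each single gene includes no change (for example 0.0980 to 1.05 for Zscan4c and 0.294 to 1.09 for Zfp352). The Zscan4 sum was 0.825 RPKM in WT and 0.367 in AP3, 2.25 times lower (32 and 15 reads, interval 1.23 to 4.64). Of the 10 fibroblast markers, 5 were higher in AP3 than in WT at D3 (10.3% of all symbols were), among them Col1a1 (1.54 RPKM in WT and 2.57 in AP3), Col1a2 (1.298 and 2.36) and S100a4 (0.432 and 1.37). Only Thy1 was lower (9.19 and 3.56 RPKM). After adding 1 RPKM the count was 1 higher and 1 lower. Their part in the difference was not tested.

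The KD-labelled library was lower than WT at D3 for 5 of 6 genes, where 11.3% of symbols were lower, and Tcstv3 did not pass (log2 change 0.29). The changes were -1.03 for Zscan4c, -1.02 for Zscan4d, -1.44 for Zscan4f, -0.87 for Tcstv1 and -0.75 for Zfp352. The counting interval of each of these 5 includes no change (for example 0.190 to 1.37 for Zscan4c and 0.0986 to 1.09 for Zscan4f), and after adding 1 RPKM none passed. The Zscan4 sum was 2.28 times lower (interval 1.24 to 4.55). The fibroblast markers moved with this comparison, with 6 of 10 lower, none higher and a sum of 14.0 RPKM in WT and 8.13 in the KD-labelled library, and their part in it was not tested. Between AP3 and the KD-labelled library at D3, Zscan4d (-0.67) and both Tcstv genes were lower (background 11.1%), Zscan4f was higher (0.68, background 11.5%), and Zscan4c (-0.40) and Zfp352 (-0.05) did not pass. These calls rest on 0 to 7 estimated reads per library. Each of their counting intervals includes no change (0.407 to 5.96 for Zscan4f). Zscan4d and Zscan4f did not pass after adding 0.1 RPKM, and none passed after adding 1 RPKM. The Zscan4 sum there was 0.367 and 0.361 RPKM, a ratio of 1.01 with an interval of 0.460 to 2.16. Of the 10 fibroblast markers, 7 were higher and 1 lower in AP3 than in the KD-labelled library at D3 (11.5% and 11.1% of all symbols). Their part in these values was not tested.

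The lines were also compared over both days in the same fit as the days, with day as the block (limma, log2(RPKM + 0.1), 2 residual degrees of freedom). This too was added after the data were seen, and it takes the difference between lines as equal at D0 and D3. From WT to AP3 the log2 change was -1.53 ± 0.545 (SE) for Zscan4c, -1.21 ± 0.463 for Zscan4d and -1.28 ± 0.613 for Zscan4f. It was -0.88 ± 0.372 for Tcstv1, -0.34 ± 0.418 for Tcstv3 and -0.12 ± 0.384 for Zfp352. The unadjusted limma p was under 0.05 for 2 of the 6 genes, the copies Zscan4c and Zscan4d, and for 1053 of all 18504 symbols. The limma adjusted p (Benjamini-Hochberg) of the 6 lay between 0.851 and 0.990. From the KD-labelled library to AP3 the unadjusted p was under 0.05 for Zscan4c (-1.34 ± 0.545), Zscan4d (-1.14 ± 0.463) and Tcstv3 (-1.09 ± 0.418), with adjusted p of 0.732 to 0.974 over the 6. From WT to the KD-labelled library it was under 0.05 for none of them. In none of the 3 comparisons was a symbol of the table called (0%). Of the 18504 symbols, 1053, 566 and 1246 had an unadjusted p under 0.05 in AP3 against WT, the KD-labelled library against WT and AP3 against the KD-labelled library. The differences between lines are thus not larger than the spread this fit estimates once all symbols are allowed for. With 1 library per line and day, that spread is how unevenly the lines differ at the 2 days, not the spread of repeat cultures. The fit does not show that the lines were alike.

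**Figure D3:**
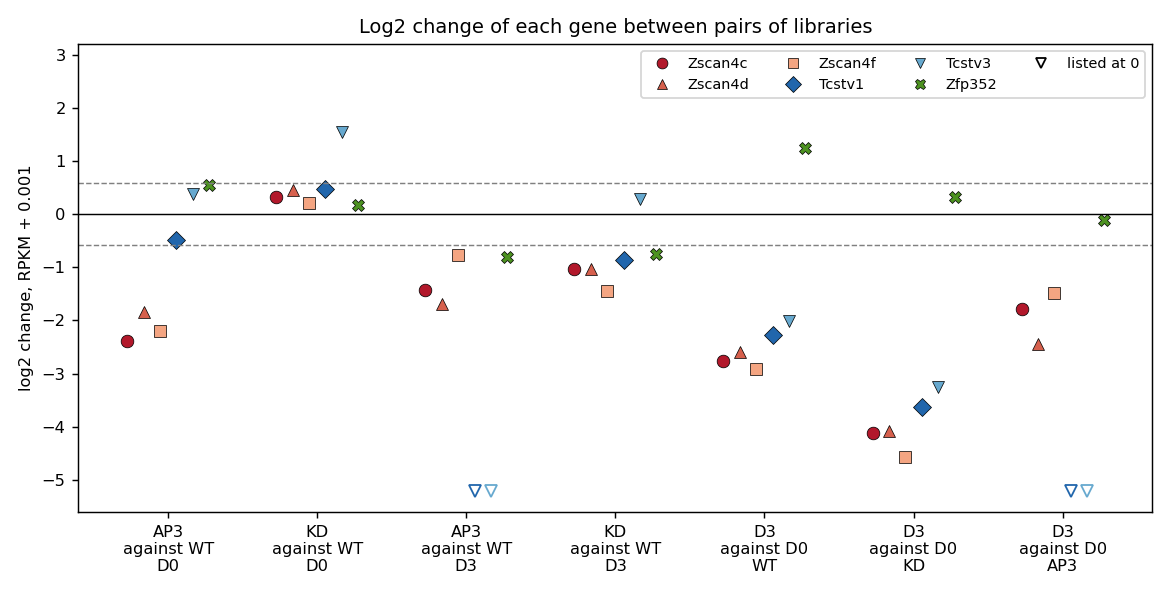
Log2 change (RPKM + 0.001) of each gene in 7 comparisons of 1 library with another, with dashed lines at 1.5-fold and open triangles where the first library lists the gene at 0. The 3 Zscan4 genes sit at -1.85 to -2.39 in AP3 against WT at D0 and at 0.22 to 0.46 in KD against WT at D0, while Zfp352 stands apart from them in the D3 against D0 comparisons.

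Other genes known from the two-cell-like state were lower at D0 in AP3 as well. Of 58 listed symbols 30 were found in the table and 29 were above 0 in at least 1 library. From WT to AP3 at D0, 24 were lower and 2 higher, where 13.8% of all symbols were lower and 11.1% higher. The median log2 change was -1.31 (0 over all symbols). After adding 0.1 RPKM the count was 20 lower and none higher, and after adding 1 RPKM it was 7 and none. The list sum was 43.1 RPKM in WT, 49.4 in the KD-labelled library and 21.5 in AP3 at D0, and 14.8, 13.9 and 11.9 RPKM at D3. Many of these genes belong to families of near-identical copies, and the split of reads among them is uncertain. The list includes Zscan4a, Zscan4b and Zscan4e, each among the lower genes at D0. As copies of the genes described they can share their reads, so the list is not independent of the Zscan4 values above.

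Averaged over the 6 libraries, 6 genes of the list reached 1 RPKM. Gm4340 was at 8.69, 9.59 and 2.74 RPKM at D0 in WT, the KD-labelled library and AP3, and at 1.61, 1.44 and 0.703 at D3. BB287469, a sum of 2 entries, was at 9.63, 12.1 and 6.46 RPKM at D0, Gm2022 at 4.62, 4.71 and 2.76, Gm8300 at 3.92, 4.49 and 2.43, and Gm5662 at 3.07, 3.64 and 1.51. Dub1, a deubiquitinating enzyme, was at 1.24, 1.51 and 0.545 RPKM at D0. All 6 had their lowest ESC level in AP3, and all but BB287469 (log2 change -0.58, just short) passed 1.5-fold against WT. Dub1 kept its D0 level in EBs of WT (1.18 RPKM) while the other 5 fell.

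**Figure D4:**
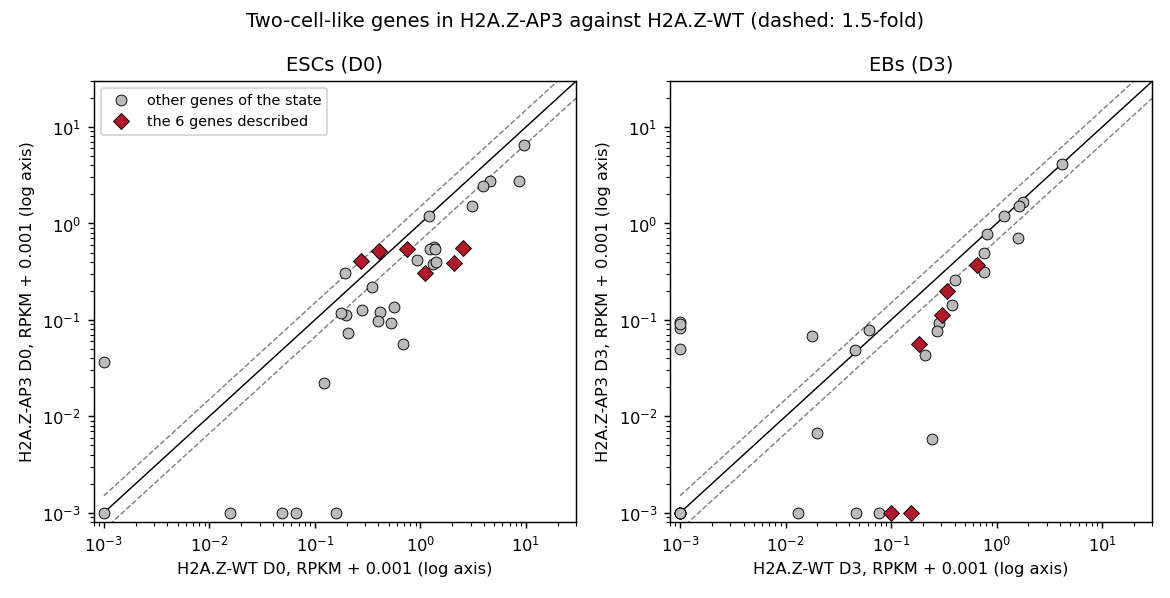
RPKM + 0.001 of the 30 other genes of the two-cell-like state (grey circles) and the 6 genes described (red diamonds) in AP3 against WT, at D0 (left) and D3 (right), on log axes with the line of equality and dashed lines at 1.5-fold. At D0 24 grey circles lie under the lower dashed line and 2 above the upper one, and at D3 the counts are 13 and 5.

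At D3 the wider list was 13 lower and 5 higher in AP3 than in WT, where 11.6% of all symbols were lower and 10.3% higher, with a median log2 change of -0.10. After adding 0.1 RPKM the count was 8 and 3, and after adding 1 RPKM it was 1 and 0. From WT to the KD-labelled library at D0, 5 genes of the list were lower and 5 higher (10.6% and 8.92% of all symbols), with a median of 0.29. At D3, 8 were lower and 6 higher (11.3% and 9.31% of all symbols), with a median of 0.00. After adding 1 RPKM none of the list passed in that comparison at either day. From D0 to D3, 25 genes of the list were lower and none higher in WT (16.4% and 14.2% of all symbols). In the KD-labelled library 24 were lower and 1 higher (16.1% and 14%), and in AP3 18 and 2 (16.3% and 14.7%). After adding 1 RPKM, 10 were lower in WT, 13 in the KD-labelled library and 1 in AP3.

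The known regulators of the state did not pass 1.5-fold between WT and AP3 in the values as deposited. Of the activators, Dppa2 was at 33.2 RPKM in WT and 26.8 in AP3 at D0, Dppa4 at 77.3 and 72.2, and Whsc2 (Nelfa), a subunit of the elongation factor NELF, at 24.9 and 22.9. None of these 3 passed 1.5-fold between the 2 lines at D0 or D3. Of the 17 repressors none passed either, and their median log2 change was -0.15 at D0 and 0.00 at D3. Of all symbols, 13.8% were lower and 11.1% higher at D0, and 11.6% and 10.3% at D3. Among symbols with a mean of at least 0.5 RPKM, these shares were 7.07% and 8.22% at D0, and 6.69% and 4.66% at D3. Trim28, a corepressor of retroviral elements, was at 353 RPKM in WT and 236 in AP3 at D0, just short of 1.5-fold (log2 change -0.581). With the 2 libraries centred on the median ratio it was just past it (-0.587), and 1 repressor was then lower. Ncl (nucleolin) was at 404 and 365 RPKM, Zfp42 (Rex1) at 203 and 195, and Kdm1a (LSD1) at 57.3 and 51.8. These are transcript levels, and the list entry Dux was not analysed here.

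The 3 Zscan4 genes followed each other across the 6 libraries, with Pearson's r of log2(RPKM + 0.1) from 0.988 to 0.996, and their correlation with the Tcstv genes was 0.822 to 0.942. Zfp352 ran against the other 5 (r from -0.590 to -0.455). These are descriptions over 6 libraries that share reads between copies and share the 3 lines. Against the mean of the 6 genes, the closest of 12638 ranked genes were E330020D12Rik (r = 0.994), Maff (0.994), Gm12794 (0.994), Gfod1 (0.993) and Zscan4e (0.992). Maff encodes a small MAF transcription factor. Its D0 levels were 13.9, 15.7 and 11.3 RPKM and its D3 levels 9.13, 7.39 and 6.48 RPKM, a narrower range than that of Zscan4c. E330020D12Rik was at 3.93, 4.17 and 2.76 RPKM at D0 and 2.26, 1.73 and 1.59 at D3, and Gfod1 at 1.79, 1.98 and 1.297 and then 1.10, 0.925 and 0.726. Gm12794, at 0.938, 1.14 and 0.422 RPKM at D0 and 0.207, 0.0695 and 0.0423 at D3, and Zscan4e are themselves on the list of two-cell-like genes.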

How the data were processed

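RNA-Seq of the WT, KD and AP3 lines at D0 and D3 gave 1 library each. TruSeq libraries of poly(A) RNA were read from 1 end, and the authors used Tophat (1.4.1 in the methods, 1.14 in the submitters' processing notes) and Bowtie 0.12.7 on mm9, where a read could have up to 2 mismatches and 20 locations. Cufflinks 1.3.0 gave the RPKM per gene that the authors deposited. Read length and the split of multiply aligned reads are not given in the sources used here. The deposited table also has log2 columns with the authors' own comparisons of lines, which were not used.

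The 21639 entries were summed by symbol to 21376 (420 share one). Changes were log2((RPKM + 0.001)/(RPKM + 0.001)), called past 1.5-fold, in 9 comparisons, with no test. D3 was also compared with D0 over the 3 lines, and the lines over both days, with limma 3.58.1 in R 4.3.3, a test added after seeing the data (log2(RPKM + 0.1), line or day as a block, trended prior, Benjamini-Hochberg adjustment). Depth was estimated from the lowest RPKM values of 3696 genes with 1 annotated GENCODE transcript, shortened by 199 bases, and gave the estimated reads and the 95% Clopper-Pearson intervals. The length of a Tcstv transcript was taken as its locus, so its reads are upper limits. The scripts were checked on simulated data that held no reads shared between copies, and in the limma checks the same noise for all genes. These checks therefore do not cover the read estimates of near-identical copies or values near 0.

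The 6 genes and the lists were chosen with earlier results of these data known. Genes named are the 6, the other two-cell-like genes that average 1 RPKM or more, of each other list the 4 highest and those past 2-fold between AP3 and WT with that mean, H2afz, the 5 of most like pattern, and neighbours within 100 kb. Sox2, Klf4, Lum, Postn, Zscan4a and Zscan4b are named outside this rule. Alternatives were pseudocounts of 0.1 and 1 RPKM, a 2-fold threshold, filters on low values, median centring, summed copies and full transcript lengths. Python 3.11.15, pandas 2.3.3, scipy 1.17.1 and Biopython 1.88 were used.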

Additional observations from a re-analysis of the deposited data

Results flagged for a closer look

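Several changes had opposite signs at the 2 days or in 2 lines. With 1 library per condition the differences between them were not tested. From WT to the KD-labelled library, the log2 change was 0.33 at D0 and -1.03 at D3 for Zscan4c, 0.46 and -1.02 for Zscan4d, 0.22 and -1.44 for Zscan4f, 0.48 and -0.87 for Tcstv1, and 0.16 and -0.75 for Zfp352. At D0 none of these 5 passed 1.5-fold, and the D3 values rest on 2 to 19 estimated reads in that library.

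From WT to AP3, Tcstv3 had 0.38 at D0 and was listed at 0 in 1 library, AP3, at D3, and Zfp352 had 0.55 and -0.80. From the KD-labelled library to AP3, Zscan4f had -2.41 at D0 and 0.68 at D3, and Zfp352 had 0.39 and -0.05. From D0 to D3, Zfp352 changed by 1.24 in WT and by -0.11 in AP3.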

How the results depend on the processing

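No change past a threshold reversed under any alternative. Median centring left the counts and medians of the 6 genes on their side of the threshold. For the lists, where centring was added after seeing the data, it took the repressors lower in AP3 from 0 to 1 against WT at D0 (Trim28), from 1 to 2 against the KD-labelled library at D0 and from 0 to 1 from D0 to D3, and the pluripotency markers lower from D0 to D3 in the KD-labelled library from 2 to 4. Adding 1 RPKM moved the median log2 change of the 6 genes to -0.44 in AP3 against WT at D0 and to -0.18 at D3, to -0.15 in the KD-labelled library against WT at D3 and to -0.35 from D0 to D3 in AP3. It left 0 genes past 1.5-fold in each of the 3 D3 comparisons between lines, 3 in AP3 against the KD-labelled library at D0 and 2 from D0 to D3 in AP3. For the KD-labelled library against WT at D3, adding 0.1 RPKM or asking for 2-fold left 3 genes; for AP3 against that library at D3, either left 2. With the copies summed to 3 entries, 1 entry passed in the KD-labelled library against WT at D0, and 1 in AP3 against it at D3. With a mean of at least 0.5 RPKM, a filter chosen after seeing the data, 1 gene was left past 1.5-fold in AP3 and 1 in the KD-labelled library, each against WT at D3, and 3 from D0 to D3 in WT. Asking for 1 RPKM in 1 of the 2 libraries also left 3 there, and where no gene reached a filter there is no value. The pseudocount and filters act on low values by construction. In the fit of the days over the 3 lines, 5 of the 6 genes were lower at an adjusted p under 0.05. This count was 4 without the line block (Zscan4c lost, limma adjusted p = 0.0628), 3 after adding 0.001 RPKM, 1 after adding 1 RPKM and 0 with any line left out. The signs of all 6 changes stayed the same in these fits, and the adjusted p of the 5 genes lay between 0.0143 and 0.471 over them. With the lines compared over both days, 0 of the 6 genes had an adjusted p under 0.05 in each of the 3 comparisons, with 0.1, 0.001 or 1 RPKM added and without the day block. There, adding 1 RPKM turned the change from WT to the KD-labelled library from -0.19 to 0.02 for Zscan4c, from -0.08 to 0.07 for Zscan4d and from -0.02 to 0.07 for Tcstv1, none of them called. The D3 values rest on 0 to 27 estimated reads per gene.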
